A study of Mus musculus with 8 samples.

Results

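Salt-inducible kinase 1 (Sik1) and 9 other genes of cyclic AMP (cAMP) and CREB signalling were followed in sorted mouse regulatory T cells: Crem, Creb1, Crtc2, Crtc3, Pde4b, Pde4d, Pde3b, Prkaca and Adora2a. Every probe annotated with 1 of these 10 symbols was taken, which gave 20 of the 25697 probes on the array, for 9 of the 10 genes. Adora2a, the gene of an adenosine receptor, had no annotated probe among them and was not analysed here. The 9 genes are among 16593 named genes on the array. The set was chosen from these same arrays, by the known difference of Sik1 between the groups. The values of the members in that comparison are therefore a description, with no test.

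The samples were CD4+GFP+ natural regulatory T cells of C57BL/6 mice with a FoxP3-GFP reporter, in which green fluorescent protein marks cells that express Foxp3. There were 4 arrays titled G-CSF, of cells from animals treated with granulocyte colony-stimulating factor, a growth factor that mobilises stem cells. The other 4 arrays were titled naive, and their treatment label says saline, so these animals may have been injected or untreated. The labels give no dose, time, age or number of mice per sample. Whether the 4 samples of a group are separate animals is also unstated, so errors and p-values cover the spread among these samples, part or all of which may be technical.

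Total RNA was measured on 1-colour Illumina MouseRef-8 v2.0 bead arrays, and each value below is a log2 intensity after background correction and quantile normalisation unless said otherwise. A probe counted as well above background where its detection p-value was under 0.01, and it was kept where at least 4 of the 8 arrays met this. It was called if limma's adjusted p was under 0.05 over all 10205 kept probes. Between 9588 and 10519 probes were well above background on an array. All 5 regulatory T cell markers (Foxp3, Il2ra, Ctla4, Ikzf2 and Tnfrsf18) and all 5 T cell markers were well above background on every array. Of 6 neutrophil markers, 5 had a probe and 0 were kept, with Ngp, Camp and Csf3r well above background on no array. Cd8a, Ms4a1 and Itgax, markers of other leukocytes, were also at background on every array, while Cd8b1, Cd79b, Lyz2 and Adgre1 were above it on all 8. Kept markers were 1 of 2 on the array for CD8 T cells, 1 of 4 for B cells and 3 of 5 for monocytes, macrophages or dendritic cells (Lyz2, Adgre1 and C1qa). Summed over each of the last 2 lists, the deposited intensity was 1312 to 2681.1 on the G-CSF arrays and 1113.8 to 1326.3 on the naive arrays for B cells, and 1448 to 4264.1 on the G-CSF arrays and 897.1 to 1886.5 on the naive arrays for the myeloid list. Summed over the 5 neutrophil probes, the deposited intensity was 598.1 to 783.8 on the G-CSF arrays and 542.1 to 1555.7 on the naive arrays. S100a8 was well above background on naive replicates 1 and 3 and on G-CSF replicate 1. All these sums are of deposited intensities, so they also carry the brightness of each array. Over the 5 T cell markers the sum was 61327.2 to 139455 on the G-CSF arrays and 55771.8 to 63763.9 on the naive arrays. After normalisation the difference, G-CSF minus naive, was -0.07 for Cd79b, -0.33 for Cd8b1 and -0.25 for Adgre1. It was 0.60 for Lyz2 and 0.59 for C1qa, with no call on any of these kept probes. Marker probes that were not kept went both ways. Among them Cd22 had 1.02, Cd79a 0.30, Ms4a1 -0.18, S100a8 -1.69 and S100a9 -1.23. Cd22 was well above background on 2 G-CSF arrays and 1 naive array. The part of these markers in the results was not tested.

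The deposited table disagrees with itself about the groups. Every intensity column was in perfect order with 1 detection p-value column, and this p-value column was placed next to the array of equal number in the opposite group. Intensities kept the labels they carry. Every higher or lower below turns round if those are the labels out of place.

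cAMP is made by adenylyl cyclases below receptors that couple to the stimulatory G protein, and it is broken down by phosphodiesterases. It activates protein kinase A (PKA), which phosphorylates the transcription factor CREB and also inhibits the salt-inducible kinases. When active, these kinases keep the CRTC coactivators of CREB in the cytoplasm. Sik1 is itself a target of CREB, so it forms a feedback loop, and regulatory T cells are known for a high content of cAMP.

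Sik1 was the 1 member that stood apart, lower on the G-CSF arrays. Its only probe (ILMN_1239463) had 5.67, 6.52, 6.34 and 5.64 on the G-CSF arrays, replicates 1 to 4, and 8.65, 6.77, 7.77 and 7.84 on the naive arrays. Every G-CSF array was below every naive array, though G-CSF replicate 2 and naive replicate 2 lay close together. The means were 6.04 ± 0.46 on the G-CSF arrays and 7.76 ± 0.77 on the naive arrays (SD, n = 4 each). The difference was -1.71 ± 0.35 on the log2 scale (SE). In bulk RNA, fewer cells with a transcript and less transcript per cell cannot be told apart.

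The Sik1 signal was dim, and this limits the size of its difference. The intensities as deposited were 136.6, 170.1, 275.9 and 160.3 on the G-CSF arrays and 440.5, 170.7, 230.4 and 270.5 on the naive arrays. In that unit the groups overlapped, because G-CSF replicate 3 was above naive replicates 2, 3 and 4. That array was also the brightest, with a median intensity over all probes of 180.8, and G-CSF replicate 4 had 145. The other 6 arrays had medians of 117.8 to 125.8. Sik1 was well above background on 2 of the 4 G-CSF arrays, replicates 2 and 3, and on all 4 naive arrays, so the naive arrays alone would have carried it through the filter. Its values on G-CSF replicates 1 and 4 were not well above background, and no fold is given.

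**Figure D1:**
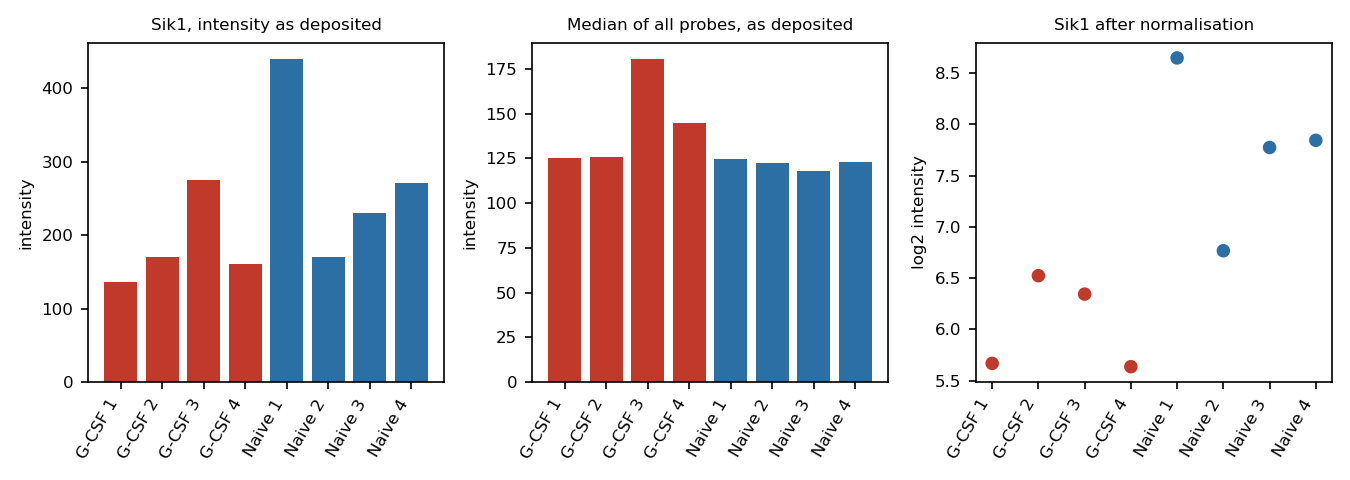
Sik1 on each of the 8 arrays, as deposited intensity (left, linear axis from 0) and as normalised log2 intensity (right), with the median deposited intensity of all probes between them. Red marks G-CSF arrays and blue marks naive arrays. G-CSF replicate 3 is the highest of its group for deposited Sik1 (275.9) and in the median of all probes (180.8), and the groups separate only after normalisation.

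With the 2 brightest arrays, G-CSF replicates 3 and 4, left out, the difference of Sik1 was -1.66 ± 0.48 (SE). It was -1.42 without naive replicate 1, its highest array, and -2.05 without naive replicate 2. Without background correction it was -0.97, and in the authors' log2 table, which also has none, it was -0.94.

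Of the 20 member probes 12 were kept, from 8 genes, and 1 of them, Sik1, was called. Since the set was chosen from this comparison, that call repeats the choice and nothing is read from it. Over all kept probes 2.2% were called, 0.951% as higher and 1.24% as lower. Sik1 was also the 1 member probe whose groups did not overlap, against 13.6% of all kept probes, 6.78% higher and 6.85% lower. Of the 12 differences 6 were positive and 6 negative, against 49.5% positive over all kept probes, with a median of -0.02, and the median of all kept probes was -0.01. With median scaling over all probes in place of quantile normalisation 11 of the 12 were positive, and with median scaling over the probes detected on all arrays 5 were. The first moved the median of all kept probes to 0.29 and the second to -0.06, and 6 of the 12 lay above it in both.

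The number of calls behind these shares changed greatly when single arrays were left out. There were 97 probes called higher and 127 called lower, or 810 and 46 under median scaling over all probes. The total of 224 became 712 without G-CSF replicate 1 and 1089 without naive replicate 1, and between 1 and 10 without any 1 of the other arrays. Probes at an unadjusted limma p under 0.05 numbered 2537 with all 8 arrays, and 1599 to 3068 with 1 array left out. Without the 2 brightest arrays limma called 0, with 1439 probes at an unadjusted p under 0.05.

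**Figure D2:**
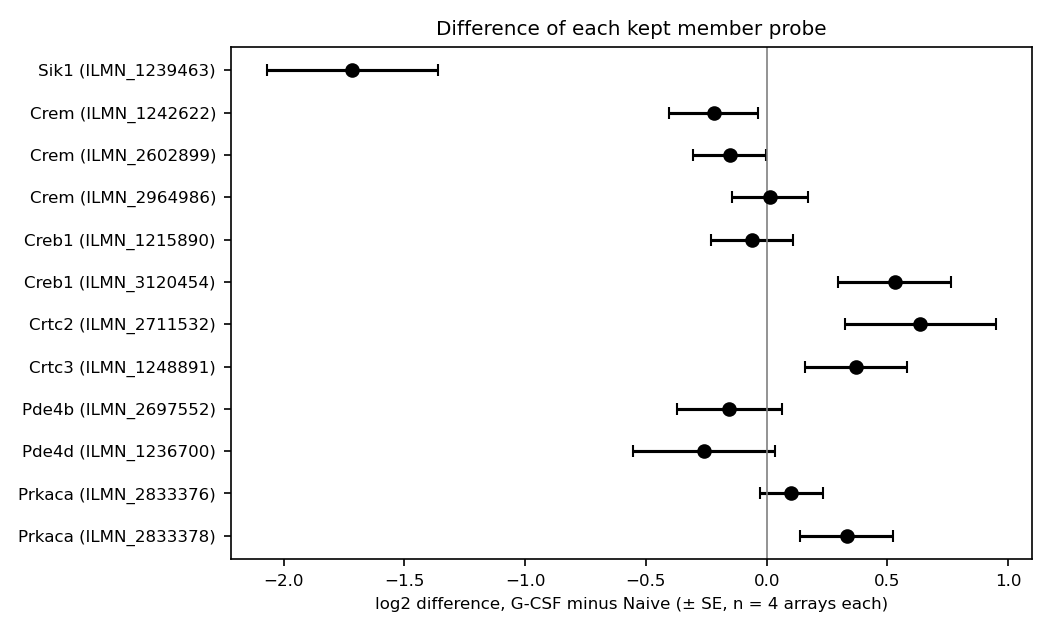
Difference in log2 intensity, G-CSF minus naive, for each of the 12 kept member probes (point) with its standard error (bar, n = 4 arrays per group). The Sik1 probe lies at -1.71 and the other 11 lie between -0.26 and 0.64 after quantile normalisation.

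Prkaca encodes the main catalytic subunit of PKA and was measured by 2 probes, both well above background on all 8 arrays. Probe ILMN_2833376 had 10.73, 10.83, 10.78 and 10.86 on the G-CSF arrays and 10.64, 10.76, 10.53 and 10.86 on the naive arrays. These 8 values lie close together, between 10.53 and 10.86, and the groups overlap, with a difference of 0.10 ± 0.13 (SE). Probe ILMN_2833378 had 9.95, 10.02, 10.65 and 10.56 on the G-CSF arrays and 9.71, 9.97, 9.99 and 10.19 on the naive arrays. Here the 2 brightest arrays were the 2 highest, and the difference of 0.33 ± 0.19 (SE) became 0.02 without them. The deposited intensities of the first probe did not overlap, at 1602.8 to 3388 on the G-CSF arrays and 1069.2 to 1528.8 on the naive arrays.

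The cAMP response element, the DNA site that CREB binds, has the full form TGACGTCA and the short form TGACG. Both were looked for on both strands in RefSeq promoter windows of GRCm38.p6, which run from 250 bases before to 50 after a gene's start. A full element holds a short element on each strand. Windows of 5 of the 10 members were searched, and 2 of these genes, Prkaca and Pde4b, had a short element and 0 a full one. Crem was not among the members searched, so whether it has an element was not tested. Of all 27025 genes with a window, 23.0% had a short element and 2.03% a full one. The Prkaca window (chr8:83972728-83973027, plus strand) is shown because Prkaca has most short elements of the 5 members searched. Capitals mark them, starting 120 and 6 bases before the start.
Prkaca: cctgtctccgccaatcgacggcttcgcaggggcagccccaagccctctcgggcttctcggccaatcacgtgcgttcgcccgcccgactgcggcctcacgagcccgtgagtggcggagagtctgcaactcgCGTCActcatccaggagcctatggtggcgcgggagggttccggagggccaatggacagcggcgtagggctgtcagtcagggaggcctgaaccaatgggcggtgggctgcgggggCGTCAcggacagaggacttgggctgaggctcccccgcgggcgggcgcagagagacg

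The kept phosphodiesterase probes of the set, 1 of Pde4b and 1 of Pde4d, had groups that overlapped. Pde4b and Pde4d encode enzymes that degrade cAMP in T cells. Pde4b had 6.11, 6.62, 7.05 and 7.16 on the G-CSF arrays and 6.81, 7.03, 6.88 and 6.82 on the naive arrays. Its G-CSF arrays surrounded the narrow range of its naive arrays, with a difference of -0.15 ± 0.22 (SE) that became -0.53 without the 2 brightest arrays and 0.12 under median scaling over all probes. The probe was well above background on 3 of the 4 G-CSF arrays and on all 4 naive arrays. Its window at chr4:102421305-102421604 (plus strand), 1 of 4 for this gene, holds a short element 34 bases before the start.

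Pde4d (probe ILMN_1236700) had 8.42, 8.45, 8.81 and 8.34 on the G-CSF arrays and 9.64, 7.99, 8.52 and 8.91 on the naive arrays. Naive replicate 1 was the highest and naive replicate 2 the lowest of all 8, so the naive arrays enclosed the G-CSF arrays. The difference of -0.26 ± 0.29 (SE) became 0.03 without naive replicate 1 and 0.09 under median scaling over all probes. A second Pde4d probe and the 1 probe of Pde3b were well above background on no array. Pde3b is known to be repressed by Foxp3.

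Creb1 encodes CREB itself, and 2 of its 6 probes were kept. Probe ILMN_1215890, well above background on all 8 arrays, had 7.37, 7.64, 7.12 and 7.33 on the G-CSF arrays and 7.09, 7.64, 7.60 and 7.39 on the naive arrays. The groups overlapped over most of their range, with a difference of -0.06 ± 0.17 (SE), which was 0.24 under median scaling over all probes. Probe ILMN_3120454 had 6.12, 6.87, 6.97 and 7.22 on the G-CSF arrays and 6.65, 6.09, 6.17 and 6.15 on the naive arrays. Its difference was 0.53 ± 0.23 (SE), with G-CSF replicate 1 among the naive arrays and naive replicate 1 above the other 3 of its group. It was 0.23 without the 2 brightest arrays. This probe was well above background on 3 of 4 G-CSF arrays and 2 of 4 naive arrays. The other 4 Creb1 probes were at background on all arrays.

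Crem encodes a relative of CREB and, from an internal start, the repressor ICER, which is induced by cAMP. The annotation does not say which of these forms its 5 probes detect. The 3 kept Crem probes were well above background on all 8 arrays. Probe ILMN_1242622 had 9.46, 9.45, 8.99 and 9.09 on the G-CSF arrays and 9.20, 9.26, 9.83 and 9.58 on the naive arrays. The brightest arrays of the G-CSF group were its lowest, and naive replicate 3 was the highest of all, with a difference of -0.22 ± 0.18 (SE). On the other kept probes, ILMN_2602899 and ILMN_2964986, the differences were -0.15 ± 0.15 and 0.02 ± 0.16 (SE), and all 3 were positive under median scaling over all probes (0.13, 0.20 and 0.34). So no Crem probe showed a difference of the size of that of Sik1.

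Crtc2 and Crtc3 encode the coactivators that salt-inducible kinases hold back, and each had 1 probe. Crtc2 had 6.08, 7.09, 6.73 and 7.28 on the G-CSF arrays and 6.58, 6.34, 6.39 and 5.32 on the naive arrays. It was well above background on 3 of 4 G-CSF arrays and on 1 of 4 naive arrays, so its filter was met mainly through the G-CSF arrays. Its difference was 0.64 ± 0.31 (SE), with G-CSF replicate 1 within the naive range, 0.43 without the 2 brightest arrays and 0.36 without naive replicate 4, its lowest. Crtc3 had 7.64, 8.22, 8.14 and 8.07 on the G-CSF arrays and 7.91, 7.12, 7.99 and 7.59 on the naive arrays. G-CSF replicate 1 again lay within the naive range, and the difference of 0.37 ± 0.21 (SE) was positive in all 20 alternatives, between 0.19 without naive replicate 2 and 0.70 under median scaling over all probes.

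**Figure D3:**
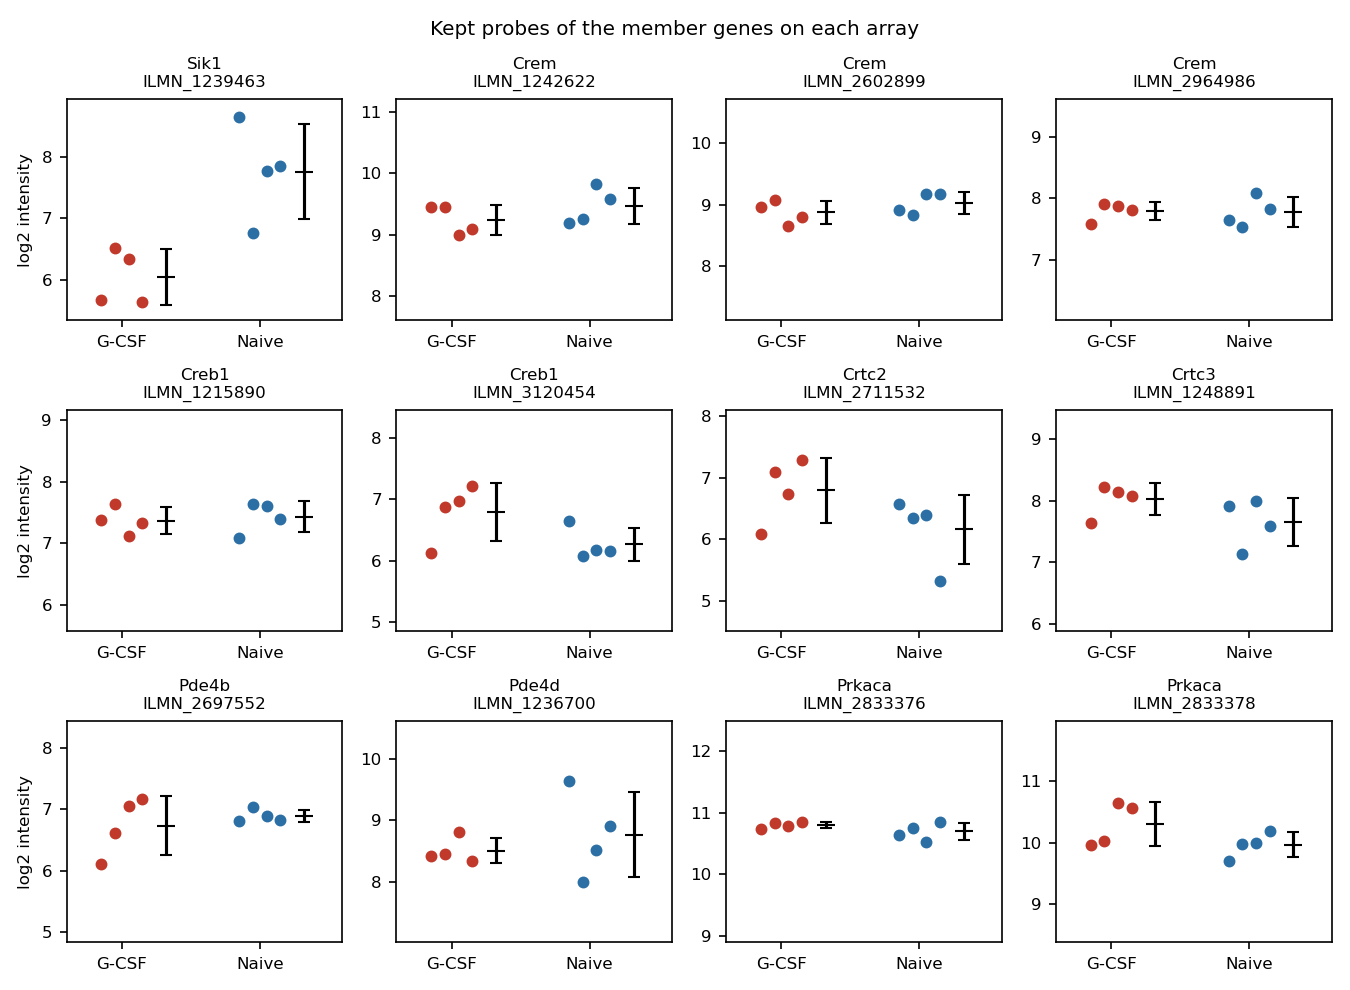
Normalised log2 intensity of the 12 kept member probes on each array, with G-CSF arrays (red) left of naive arrays (blue) in replicate order, and mean ± SD beside each group (n = 4). Every panel has the same height in log2 units, centred on its own probe. Only Sik1 has groups that do not overlap.

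The 8 member probes that were not kept came from Crem (2 probes), Creb1 (4), Pde4d and Pde3b. They were well above background on 0 arrays, with deposited intensities of 84.4 to 189.4. Any difference on them was not detectable here.

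Other genes of the pathway were read from 7 lists made by function, with 107 genes, of which 93 had a probe and 50 a kept one. On the brightest kept probe of each gene, 0 were called higher and 1 lower, which is 2% against 2.2% of all kept probes. The median difference was 0.09, against -0.01 for all kept probes, and 31 of 50 were positive. Without the 2 brightest arrays the median was -0.00494 and 24 of 50 were positive. Where the groups of a named gene did not overlap on its brightest probe this is stated, and 13.6% of all kept probes had such groups.

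The 1 gene called was Pde4a, which encodes another cAMP-degrading enzyme of the same family as Pde4b and Pde4d. Its kept probe, 1 of 4, had 5.93, 6.73, 6.48 and 6.71 on the G-CSF arrays and 7.80, 7.32, 7.35 and 7.28 on the naive arrays. All G-CSF arrays were below all naive arrays, and the probe fell by 0.97 on the log2 scale in the G-CSF group (SE 0.20, n = 4 per group, limma adjusted p = 0.0471). It was called in 7 of 19 alternatives, with differences of -1.10 without the 2 brightest arrays to -0.52 in the authors' log2 table. The probe was well above background on 3 of the 4 G-CSF arrays, not on replicate 1, its lowest, and on all 4 naive arrays. The deposited intensities overlapped, with means of 213.3 on the G-CSF arrays and 225.6 on the naive arrays. Of the other 4 measured phosphodiesterase genes, Pde2a had 0.72 (limma adjusted p = 0.0857) with groups that did not overlap, and became 0.35 without G-CSF replicates 3 and 4. Pde1b had 1.22 (limma adjusted p = 0.220), its naive arrays ranged from 6.10 to 9.56, and it was 1.94 without naive replicate 1 and 0.79 without naive replicate 2. Pde8a had -0.20.

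Among receptors and G proteins 0 of 6 measured genes were called on their brightest probe. Ptger2, the gene of the prostaglandin E2 receptor EP2, which raises cAMP, was positive on both of its probes. The brighter probe had 9.08, 8.78, 8.80 and 8.84 on the G-CSF arrays and 7.06, 8.37, 8.31 and 8.16 on the naive arrays, a difference of 0.90 ± 0.26 (SE, limma adjusted p = 0.0824). The dimmer probe, ILMN_2812759, had 7.57, 7.88, 7.56 and 7.80 on the G-CSF arrays and 6.00, 7.04, 6.64 and 6.96 on the naive arrays, and it rose by 1.04 ± 0.22 (SE, n = 4 per group, limma adjusted p = 0.0471). Groups did not overlap on either probe. On the naive arrays the dimmer probe was well above background on 3 of 4, not on replicate 1, its lowest. The dimmer one was called in 10 of 19 alternatives, with differences of 0.59 to 1.32, and it was 1 of 2 called among the 61 kept probes of the lists. It was named after its values were seen. The prostacyclin receptor gene Ptgir had -0.49 (limma adjusted p = 0.133) and was well above background on 1 of 4 G-CSF arrays and 4 of 4 naive arrays. Gnai2, an inhibitory G protein subunit, had 0.57, and Nt5e, the CD73 enzyme that makes adenosine, had 0.32 with groups that did not overlap (limma adjusted p = 0.209 and 0.188). The other kept Nt5e probe had 0.75, also without overlap (limma adjusted p = 0.0554). Gnai2 came to 0.03 without the 2 brightest arrays.

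Of 10 measured genes of PKA subunits, inhibitors and anchors 0 were called, with a median of 0.09. The 2 with the strongest signal, the catalytic subunit gene Prkacb and the regulatory subunit gene Prkar1a, had -0.07 and 0.10. Those with the largest differences were the anchor genes Akap9 (0.85), Akap12 (0.45) and Akap7 (-0.38), with limma adjusted p of 0.272, 0.248 and 0.146. The groups of Akap7 did not overlap. Without naive replicate 2 Akap9 was 0.50 and Akap12 0.22, and without naive replicate 1 Akap9 was 1.39. Both measured adenylyl cyclase genes were near 0, with -0.17 for Adcy7 and -0.07 for Adcy6, or 0.17 and 0.23 under median scaling over all probes.

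The list of kinases and deacetylases next to Sik1 had 9 of 10 positive differences and a median of 0.24, and 0 were called. Under median scaling over detected probes 7 of 10 were positive, and without the 2 brightest arrays 6 of 10 were. Salt-inducible kinases also phosphorylate class IIa histone deacetylases and hold them in the cytoplasm. The genes of 3 of these, Hdac4, Hdac5 and Hdac7, had the largest differences of the list, at 0.81 ± 0.22, 0.74 ± 0.19 and 0.68 ± 0.28 (SE, limma adjusted p = 0.0700, 0.0628 and 0.168). Hdac5 had 9.48, 9.39, 9.56 and 9.88 on the G-CSF arrays and 9.35, 8.57, 8.70 and 8.70 on the naive arrays, and its groups did not overlap. Hdac4 and Hdac7 came to 0.54 and 0.36 without the 2 brightest arrays. Mark2 had 0.00 on its brightest probe but 1.13 on another, and Mark3 -0.04. The other salt-inducible kinase genes, Sik2 and Sik3, were not kept.

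Of 5 other CREB family factors and coactivators 0 were called, with 4 positive and a median of 0.46. The acetyltransferase gene Ep300 had 0.60, the further coactivator gene Crtc1 0.55 and Creb3l2 0.46, with limma adjusted p of 0.281, 0.220 and 0.107. Ep300 was 0.25 without naive replicate 2 and 0.92 without naive replicate 1, and Crtc1 was 0.30 without naive replicate 3. The groups of Creb3l2 did not overlap. Creb3 had -0.23, or 0.08 under median scaling over all probes.

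Genes known to be induced through cAMP and CREB had a negative median of -0.33 over the 12 measured, and 0 were called, 7 being negative. The median was -0.40 without the 2 brightest arrays, -0.39 under median scaling over detected probes and -0.04 under that over all probes. The last of these moved the median of all kept probes to 0.29. Measured from the median of all kept probes, the list median was -0.32 under quantile normalisation of all 8 arrays and under both median scalings. It was -0.41 from there without the 2 brightest arrays. Rgs2, a regulator of G protein signalling, had 5.37, 6.55, 6.43 and 6.58 on the G-CSF arrays and 8.12, 6.69, 6.95 and 6.77 on the naive arrays, a difference of -0.90 ± 0.35 (SE, limma adjusted p = 0.153). Sgk1, a kinase gene, had -0.84 ± 0.23 (SE, limma adjusted p = 0.0684). Naive replicate 1 was the highest array for both and their groups did not overlap. In deposited intensity the groups of both overlapped, with means for Rgs2 of 201.7 on the G-CSF arrays and 211.95 on the naive arrays. Rgs2 was well above background on 3 of the 4 G-CSF arrays, not on replicate 1, its lowest. The nuclear receptor gene Nr4a2 had -0.64 (limma adjusted p = 0.295), with naive replicate 1 highest and naive replicate 2 within the G-CSF range. Without naive replicate 1 Nr4a2 came to -0.28 and Rgs2 to -0.57, and without naive replicate 2 Nr4a2 had -0.97. The 2 brightest, the phosphatase gene Dusp1 and the AP-1 gene Junb, had -0.40 and -0.42 (limma adjusted p = 0.168 and 0.294), and Junb had -0.76 without the 2 brightest arrays and -0.22 without G-CSF replicate 1. In the other direction Cebpb and Fosb had 0.48 and 0.42, named after their values were seen.

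**Figure D4:**
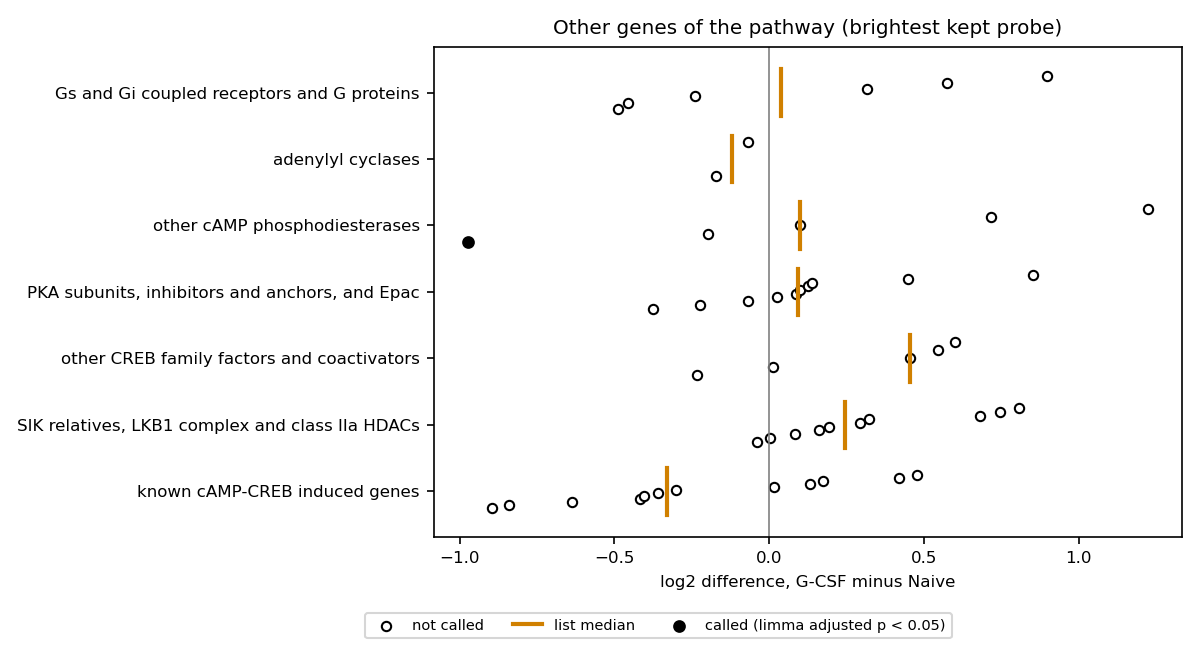
Difference in log2 intensity, G-CSF minus naive, of the 50 other pathway genes on their brightest kept probe, by list, with filled points called by limma and bars at list medians. Pde4a at -0.97 is the only filled point, and medians run from -0.33 for known cAMP-CREB induced genes to 0.46 for other CREB family factors.

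A short element was found in windows of 16 of the 17 known induced genes that were searched, and a full element in 3, against 23.0% and 2.03% of all genes. These genes were listed because CREB acts on them, so this describes the list. The window of Dusp1 (chr17:26508423-26508722, minus strand) is shown because Dusp1 was the measured gene with a full element among those searched. That of Rgs2 (chr1:144004100-144004399, minus strand) is shown because Rgs2 had the largest difference of that list. Both are printed along the gene, with short and full elements in capitals. The full element of Dusp1 starts 143 bases before the gene's start, and a short element of Rgs2 starts 67 bases before it.
Dusp1: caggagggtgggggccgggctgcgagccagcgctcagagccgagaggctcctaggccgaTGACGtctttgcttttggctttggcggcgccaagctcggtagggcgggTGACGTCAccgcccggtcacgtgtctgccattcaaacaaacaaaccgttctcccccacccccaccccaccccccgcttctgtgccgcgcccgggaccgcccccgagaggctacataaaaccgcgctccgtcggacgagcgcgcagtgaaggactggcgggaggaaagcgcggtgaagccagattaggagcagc
Rgs2: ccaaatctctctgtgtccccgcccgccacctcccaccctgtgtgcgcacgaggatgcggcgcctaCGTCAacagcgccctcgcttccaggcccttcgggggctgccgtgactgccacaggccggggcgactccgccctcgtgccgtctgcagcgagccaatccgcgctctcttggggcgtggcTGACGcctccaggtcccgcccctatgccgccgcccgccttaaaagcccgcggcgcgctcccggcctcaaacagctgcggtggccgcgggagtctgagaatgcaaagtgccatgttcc

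Genes whose pattern over the 8 arrays was most like that of Sik1 were found by the root-mean-square difference of centred log2 intensities. The closest were Tgif1 (0.35), Atf4 (0.41), Il10 (0.43), Coq10b (0.43) and Plk2 (0.44), against a median of 1.05 over the 10204 other kept probes and a spread of Sik1 itself of 1.02. Tgif1 encodes a transcriptional repressor, Atf4 a factor of the stress response, Coq10b a protein of coenzyme Q function and Plk2 a polo-like kinase. Tgif1 had 2 more kept probes, with differences of -0.55 and -0.74 against -1.46 on this one, and Coq10b had 1 more, with -0.52 against -1.60. The choice uses the same arrays as the difference of Sik1, so lower values in the G-CSF group are built into it.

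Likeness to Sik1 on single arrays is also built into the choice of these 5. All 5 had their highest value on naive replicate 1, except Il10, where naive replicate 4 was level with it. Plk2 had 7.47, 8.67, 7.56 and 7.94 on the G-CSF arrays and 9.81, 8.74, 9.06 and 9.04 on the naive arrays. G-CSF replicate 2 came close to the naive range in Plk2, as it did in Sik1. Il10 encodes the suppressive cytokine IL-10, which salt-inducible kinases are known to restrain in macrophages by holding back CRTC3, and it had 10.05, 10.57, 10.72 and 10.70 on the G-CSF arrays and 12.19, 11.53, 11.97 and 12.20 on the naive arrays. The difference of Il10 was -1.46 ± 0.20 (SE), and its sign is built into the choice of these 5 probes. How Il10, Sik1 and Crtc3 relate in these cells was not tested.

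**Figure D5:**
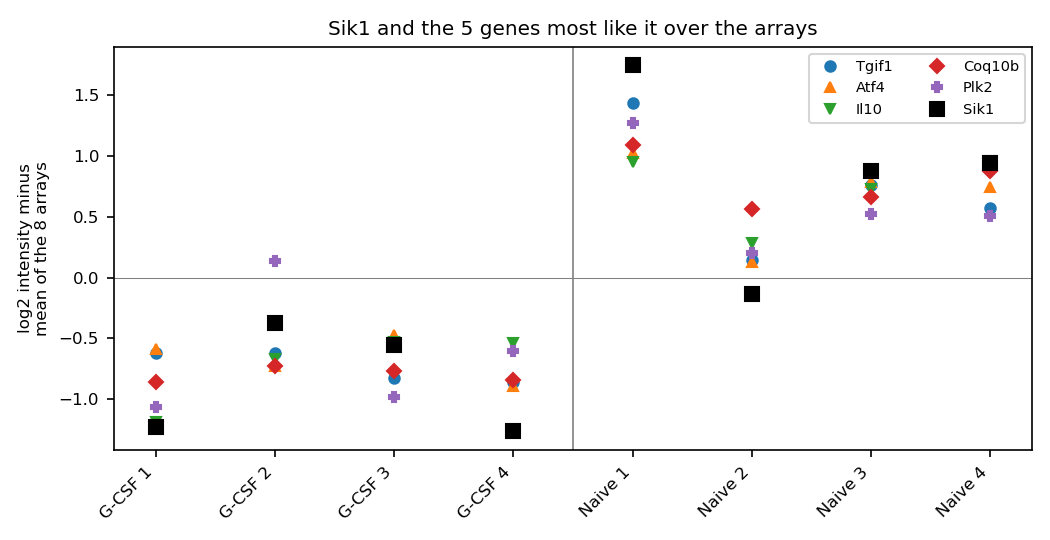
Log2 intensity of Sik1 (black squares) and of the 5 kept probes with the most similar pattern on each of the 8 arrays, each minus its own mean. Sik1 lies at its highest on naive replicate 1, and naive replicate 2 is the lowest naive array for Sik1 and for the other 5. The 5 were chosen for such likeness on these arrays.

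Plk2 was the gene of these 5 with a full element in its window, out of 4 with a window, and 3 of the 4 had a short element. This window was read after the values were seen. It lies at chr13:110394794-110395093 on the plus strand, and the full element starts 62 bases before the gene's start, with a further short element 22 bases after it.
Plk2: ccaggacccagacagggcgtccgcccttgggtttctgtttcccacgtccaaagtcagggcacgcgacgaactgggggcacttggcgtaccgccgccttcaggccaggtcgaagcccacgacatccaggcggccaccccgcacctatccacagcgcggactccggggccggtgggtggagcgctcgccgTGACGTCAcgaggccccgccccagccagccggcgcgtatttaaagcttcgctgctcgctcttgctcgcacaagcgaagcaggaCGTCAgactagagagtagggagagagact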

How the data were processed

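RNA of 8 samples, 4 titled G-CSF and 4 titled naive, was measured on single-colour bead arrays. The deposited table holds probe intensities, not normalised and with no background subtracted (lowest values 70.3 to 82.3), and detection p-values, per the file headers. The submitters' processing notes list GenomeStudio, with no version. The second deposited table holds log2 values, with no account of their making. Recomputing it as quantile-normalised log2 intensities centred on each probe's median left a standard deviation of at most 0.00446 per array.

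Each of the 8 p-value columns was joined to the intensity column it is in perfect order with (tolerance 1e-04). This rests on the values, since the headers name no sample, and it sets no sample's group. Intensities were processed with neqc (offset 16) and tested with lmFit and eBayes on all 8 arrays in limma 3.58.1 (R 4.3.3), with Benjamini-Hochberg adjustment over 10205 kept probes. The fit was tested on simulated data. The number of arrays limits the precision. No batch is named. Alternatives were other background corrections and scalings, the deposited log2 table, other filters, variance models, array weights, a replicate block and arrays left out.

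Of the probes, 23978 have 1 gene symbol and 1719 are unnamed here. Of the named probes, 23962 matched RefSeq by Entrez identifier. The members, the lists and the naming rule were chosen with earlier results of these data known. The rule names all member probes, and in each list the called genes, the 3 with the largest difference and the 2 brightest. It also names Il10 and the 5 probes most like Sik1. The files name no genome build, so coordinates are given only for RefSeq promoter windows.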

Additional observations from a re-analysis of the deposited data

Results flagged for a closer look

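In 6 of 92 groups of 4 arrays, 1 array stood far from its group by Dixon's test at the 95% level. Chance gives about 1 in 20. Of these, 5 were on naive replicate 1. They were Creb1 on probe ILMN_3120454 (log2 intensity 6.65, others 6.09 to 6.17), Ptger2 on its brighter probe (7.06, others 8.16 to 8.37), Ptgir (6.27, others 6.78 to 6.86), Pde4a (7.80, others 7.28 to 7.35) and Hdac5 (9.35, others 8.57 to 8.70). The other was Rgs2 on G-CSF replicate 1 (5.37, others 6.43 to 6.58).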

How the results depend on the processing

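Sik1 was lower in the G-CSF group in all 19 alternatives that gave a value, while on probes above background on all 8 arrays it gave none. Its difference ranged from -2.05 to -1.42 with 1 array left out, and was -0.97 without background correction and -0.94 in the deposited log2 table, against -1.71. The number of probes called (224) ranged from 1 to 1089 with 1 array left out. It was 856 under median scaling over all probes, 4 with no filter on dim probes, 3776 with array weights and 0 without the 2 brightest arrays. The number of pathway genes called (1) ranged from 0 to 8 with 1 array left out. It was 5 under median scaling over all probes, 2 under that over detected probes and 19 with array weights. It was 0 without background correction, in the deposited log2 table, on probes detected on all arrays, with no filter and without the 2 brightest arrays. With the replicate number as a block 4 probes and 0 pathway genes were called. Deviations of same-numbered arrays correlated at -0.12, -0.02, 0.18 and 0.08. The labels do not say whether the numbers pair the samples, and these correlations cannot decide it.

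Directions that turned belong to uncalled probes. Among the named pathway genes outside the set, median scaling over all probes turned Adcy6 (0.23), Adcy7 (0.17), Creb3 (0.0846), Mark3 (0.29), Pde8a (0.14) and Prkacb (0.0752). Median scaling over detected probes turned Mark2 (-0.19) and Prkar1a (-0.0769), array weights turned Mark2 (-0.00468), and leaving out the 2 brightest arrays turned Mark3 (0.18) and Prkar1a (-0.0340). With 1 array left out Adcy6 ranged from -0.188 to 0.0572, Mark2 from -0.0870 to 0.0990, Mark3 from -0.160 to 0.158 and Prkacb from -0.115 to 0.00185. Of the 12 member probes 6 turned. Median scaling over all probes turned Creb1 ILMN_1215890 (0.24), Crem ILMN_1242622 (0.13), Crem ILMN_2602899 (0.20), Pde4b (0.12) and Pde4d (0.09). Crem ILMN_2964986 turned over detected probes (-0.00774), with array weights (-0.0678) and without the 2 brightest arrays (-0.0343). Creb1 ILMN_1215890 also turned without the 2 brightest arrays (0.0798), and Pde4b with array weights (0.0813). With 1 array left out the ranges that crossed 0 were -0.174 to 0.0215 for Creb1 ILMN_1215890, -0.0647 to 0.121 for Crem ILMN_2964986, -0.297 to 0.0543 for Pde4b and -0.518 to 0.0318 for Pde4d. Median scaling over all probes moved the median of all kept probes from -0.01 to 0.29, and that over detected probes moved it to -0.06. The 2 median scalings differ by the same amount for every probe, so their turns are not separate findings on each gene. The causes were not tested. Probes near background, among them Sik1 and Crtc2, limit what these arrays resolve.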
